A study of Mus musculus with 50 samples.

Results

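SUZ12 binding was compared between 2 lines of mouse embryonic stem cells (ESCs) of which one has neither EZH1 nor EZH2 and the other an EZH2 that the study describes as catalytically inactive. The H3K27me3 lists hold 53 peaks in the first, 3862 in the second and 16754 in WT. They cover 0.00107%, 0.0763% and 0.545% of the genome in the same order. The study itself reports almost no H3K27me3 peaks in either mutant line. Few SUZ12 peaks of the second line lay on its H3K27me3 peaks, as given below. The compared items were all 3366 SUZ12 ChIP-seq peaks listed for *Ezh2* Y726D ESCs and all 317 listed for *Ezh1/2* dKO ESCs, which together are 3683 of the 13896 SUZ12 peaks in the lists of the 5 lines used here. The *Ezh1/2* dKO line lost both *Ezh1* and *Ezh2* through CRISPR deletions that remove the genes. The *Ezh2* Y726D line carries a tyrosine-to-aspartate point mutation on both *Ezh2* alleles, made in *Ezh1* KO cells, so both lines share the loss of *Ezh1*. Both derive from E14TG2a ESCs and were grown in 2i/LIF with serum. The lists of WT, *Ezh2* KO and *Ezh2* R685C ESCs, the last a second point mutation in *Ezh1* KO cells, serve as references. The study describes R685C as restoring mainly H3K27me2 rather than H3K27me3, so it is not a second inactive EZH2. The label of the *Ezh2* Y726D library names the mutation without the *Ezh1* knockout. Each list comes from 1 library, and so no difference between lines in ChIP-seq has a replicate check or a test. The edited lines were derived as clones, and a difference between lines cannot be told apart from one between clones.

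Polycomb repressive complex 2 (PRC2) methylates lysine 27 of histone H3. SUZ12 and EED form its core with either EZH2 or EZH1, the paralogous subunits that hold the catalytic SET domain, while accessory subunits such as MTF2, PHF19, JARID2 and AEBP2 bind SUZ12 and help to bring the complex to chromatin. In ESCs, PRC2 sits mainly on CpG islands of silent genes for developmental regulators, such as the Hox genes and other transcription factors of cell lineages. A SUZ12 ChIP reports where SUZ12 rests, with or without a subunit able to methylate. In a line without EZH1 and EZH2 its peaks cannot stand for a complete core.

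The targeted genes matched the labels in RNA-seq, where each line had 2 libraries. *Ezh2* had 0.82 and 1.78 normalized counts in *Ezh1/2* dKO, 421.72 and 613.06 in *Ezh2* Y726D and 597.63 and 545.92 in WT. *Ezh1* had 14.01 and 20.42 in *Ezh1/2* dKO and 24.07 and 15.66 in *Ezh2* Y726D against 226.78 and 377.43 in WT. *Suz12* itself had 701.45 and 617.99 in *Ezh1/2* dKO and 531.38 and 513.49 in *Ezh2* Y726D, and *Eed* 895.98 and 977.6 against 1086.84 and 1251.85. These RNA values do not show protein levels. By western blot, the study describes SUZ12 and EED proteins as destabilized in the line without EZH1 and EZH2, but not in *Ezh2* Y726D. Whether the amount of SUZ12 protein affected the peak lists was not tested. *Pou5f1*, the gene of the pluripotency factor OCT4, had 1327.9 and 1404.69 in *Ezh1/2* dKO and 1496.08 and 1702.7 in *Ezh2* Y726D. Both lines thus expressed this marker of the labelled cell type.

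4 stretches of 300 bases around peak summits show the kinds of sites compared (mm9, forward strand). They were chosen as strong sites of each kind, and capitals mark CpG dinucleotides.
Listed in both lines, exon of *Uncx*, chr5:140022772-140023071: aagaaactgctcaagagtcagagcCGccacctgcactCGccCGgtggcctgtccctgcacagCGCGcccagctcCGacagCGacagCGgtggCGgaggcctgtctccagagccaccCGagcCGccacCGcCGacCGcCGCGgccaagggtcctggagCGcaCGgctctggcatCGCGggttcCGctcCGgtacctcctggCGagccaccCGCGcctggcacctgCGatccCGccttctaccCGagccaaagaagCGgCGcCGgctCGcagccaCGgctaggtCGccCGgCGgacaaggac
*Ezh2* Y726D only with a WT peak, exon of *Tbx2*, chr11:85651356-85651655: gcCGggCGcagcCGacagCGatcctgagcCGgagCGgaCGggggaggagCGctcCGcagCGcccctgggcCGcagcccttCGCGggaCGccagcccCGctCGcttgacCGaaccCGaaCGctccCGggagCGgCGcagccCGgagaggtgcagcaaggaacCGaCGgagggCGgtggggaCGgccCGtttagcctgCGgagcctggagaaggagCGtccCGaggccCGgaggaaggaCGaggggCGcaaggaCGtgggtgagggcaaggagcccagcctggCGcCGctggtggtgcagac
*Ezh2* Y726D only without a WT peak, in *Thbs1*, chr2:117940457-117940756: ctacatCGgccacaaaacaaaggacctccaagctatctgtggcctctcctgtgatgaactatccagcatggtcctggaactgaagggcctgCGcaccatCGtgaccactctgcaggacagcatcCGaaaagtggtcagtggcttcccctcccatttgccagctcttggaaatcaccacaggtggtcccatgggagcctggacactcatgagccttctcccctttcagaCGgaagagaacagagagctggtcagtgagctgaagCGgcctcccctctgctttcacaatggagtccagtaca
*Ezh1/2* dKO only, within 1 kb of a start site of *Runx3*, chr4:134707980-134708279: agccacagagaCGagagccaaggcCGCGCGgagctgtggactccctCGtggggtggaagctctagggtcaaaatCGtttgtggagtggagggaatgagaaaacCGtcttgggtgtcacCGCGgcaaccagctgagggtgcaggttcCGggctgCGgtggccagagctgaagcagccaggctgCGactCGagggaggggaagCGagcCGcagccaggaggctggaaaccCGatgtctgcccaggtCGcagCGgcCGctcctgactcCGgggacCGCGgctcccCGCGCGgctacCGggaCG
The *Uncx* and *Tbx2* stretches held 36 and 37 CpGs, with a GC content of 72.0% and 74.7%. The *Runx3* stretch held 27 CpGs and the *Thbs1* stretch 6, with 67.3% and 55.3% GC. The *Thbs1* stretch is not typical of its class, which held a median of 24 CpGs (quartiles 16 and 31).

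*Ezh2* Y726D ESCs had 10.6 times as many listed SUZ12 peaks as *Ezh1/2* dKO ESCs, counting 483 *Ezh2* Y726D and 10 *Ezh1/2* dKO peaks that lie on no WT peak, and the *Ezh2* Y726D peaks were higher and wider. The peaks covered 2359843 bases in *Ezh2* Y726D, which is 0.0889% of the genome, and 152415 bases or 0.00574% in *Ezh1/2* dKO. The median −log10 p of a peak (the strength listed by the peak caller) was 14.5 in *Ezh2* Y726D and 11.7 in *Ezh1/2* dKO, with quartiles of 11.7 and 18.6 and of 10.8 and 13.6. The strongest peak reached 66.9 in *Ezh2* Y726D, 31.3 in *Ezh1/2* dKO and 201 in WT. At a stricter −log10 p of 20, 670 *Ezh2* Y726D peaks and 9 *Ezh1/2* dKO peaks were left.

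The height of each peak could be recovered as a number of DNA fragments. The listed fold enrichment and p-value of a peak come from the fragments stacked over its summit and the background expected there, and solving both gave whole fragments for 100% of the peaks within 0.001 of the listed −log10 p. The genome-wide background came out at 2.42813 fragments in *Ezh2* Y726D and 2.42869 in *Ezh1/2* dKO. It lay between 2.42828 and 2.42861 in the other 3 lists, so the lists appear to have been called at near-equal depth. The sources used here do not state that libraries were scaled or thinned to a common depth, and if they were scaled, the recovered numbers are scaled fragments and the counting intervals below only approximate. At this background a peak needs 18 fragments and a width of 200 bases to be listed, and a site that is not listed may still have held fewer.

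Peaks of *Ezh1/2* dKO stood close to this limit. Their median was 20 fragments (quartiles 19 and 22), and 248 of 317 (78.2%) had 18 to 22. The median in *Ezh2* Y726D was 23 fragments (quartiles 20 and 27), with 1627 of 3366 peaks (48.3%) at 18 to 22, and in WT it was 31. Outside regions of high background, the highest peak had 45 fragments in *Ezh1/2* dKO, 78 in *Ezh2* Y726D and 161 in WT. The *Ezh2* Y726D peak of 78 lay in a stretch of chromosome X at *Mid1*, described below. A count of 20 has an exact Poisson 95% interval of 12.2 to 30.9, and a count of 23 one of 14.6 to 34.5, which cover counting error only, so single sites near the limit cannot be ordered.

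**Figure D1:**
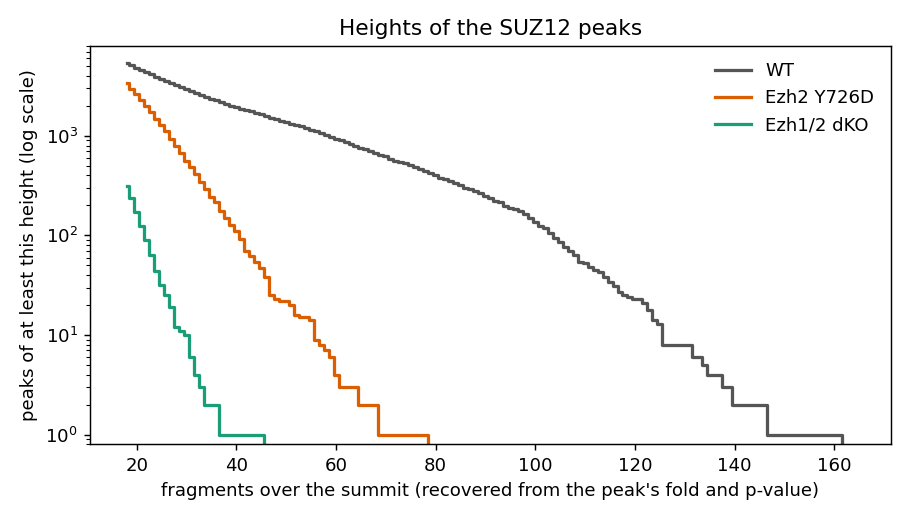
Number of SUZ12 peaks (log scale) with at least the number of fragments over the summit shown on the horizontal axis, for the 1 library each of WT, *Ezh2* Y726D and *Ezh1/2* dKO, without peaks of a background of 10 fragments or more. The lines start at the listing limit of 18 fragments, and the *Ezh1/2* dKO line ends at 45, the *Ezh2* Y726D line at 78 and the WT line at 161. The *Ezh2* Y726D peak of 78 lies in the chromosome X stretch at *Mid1*.

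The median width was 579 bases in *Ezh2* Y726D (quartiles 366 and 881.5) and 403 in *Ezh1/2* dKO (quartiles 280 and 592). Among peaks of up to 35 fragments, the widths of peaks of equal height lay closer. Peaks of 18 to 20 fragments had a median of 367 bases in *Ezh2* Y726D (n = 1054) and 334 in *Ezh1/2* dKO (n = 188), with overlapping quartile ranges. Peaks of 21 to 25 fragments had 561 (n = 1198) and 493.5 bases (n = 98), and peaks of 26 to 35 fragments had 866 (n = 895) and 817 (n = 23). At 36 to 60 fragments they had 1357.5 (n = 212) and 773 (n = 2), the latter from too few peaks to compare. Width rose with height up to 35 fragments in both lines, and at a −log10 p of at least 20 the order turned, with 1088 bases in *Ezh2* Y726D (n = 670) and 1130 in *Ezh1/2* dKO (n = 9).

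The *Ezh1/2* dKO sites were almost all also *Ezh2* Y726D sites. Of the 317 *Ezh1/2* dKO peaks, 303 (95.6%, Wilson 95% interval 92.7 to 97.4) overlapped an *Ezh2* Y726D peak, and only 270 of the 3366 *Ezh2* Y726D peaks (8.02%, 7.15 to 8.99) overlapped an *Ezh1/2* dKO peak. The share listed in *Ezh1/2* dKO rose with the height in *Ezh2* Y726D. It was 0.759% of 1054 peaks at 18 to 20 fragments, 2.50% of 1198 at 21 to 25, 9.11% of 626 at 26 to 30, 28.6% of 391 at 31 to 40 and 65.6% of 93 at 41 or more. When only the 317 strongest *Ezh2* Y726D peaks were used, they overlapped 157 of the 317 *Ezh1/2* dKO peaks (49.5%, 44.1 to 55.0).

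Peaks that overlap across the lists formed 266 shared sites, of which 264 had a background under 10 fragments in both lines. At these 264 sites the median was 33 fragments in *Ezh2* Y726D (quartiles 28 and 40, range 18 to 78) and 20 in *Ezh1/2* dKO (quartiles 19 and 22, range 18 to 45). *Ezh2* Y726D was higher at 253 sites, equal at 5 and lower at 6. The median ratio of *Ezh2* Y726D to *Ezh1/2* dKO was 1.61 (quartiles 1.41 and 1.89, range 0.80 to 2.84). As only sites past the limit in *Ezh1/2* dKO enter, the ratio leaves out the sites that fell furthest.

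By the listed strength, the median was 25.2 in *Ezh2* Y726D and 12.2 in *Ezh1/2* dKO, and *Ezh2* Y726D was stronger at 256 of the 264 sites. The median width per shared site was 1267.5 bases in *Ezh2* Y726D and 449 in *Ezh1/2* dKO, and 256 sites were wider in *Ezh2* Y726D. The summits of both lines lay within 200 bases of each other at 151 sites (57.2%), with a median distance of 168.5 bases. The 104 *Ezh2* Y726D peaks of 36 fragments or more that no *Ezh1/2* dKO peak overlapped, 97 of them on WT peaks, held up to 68 fragments.

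**Figure D2:**
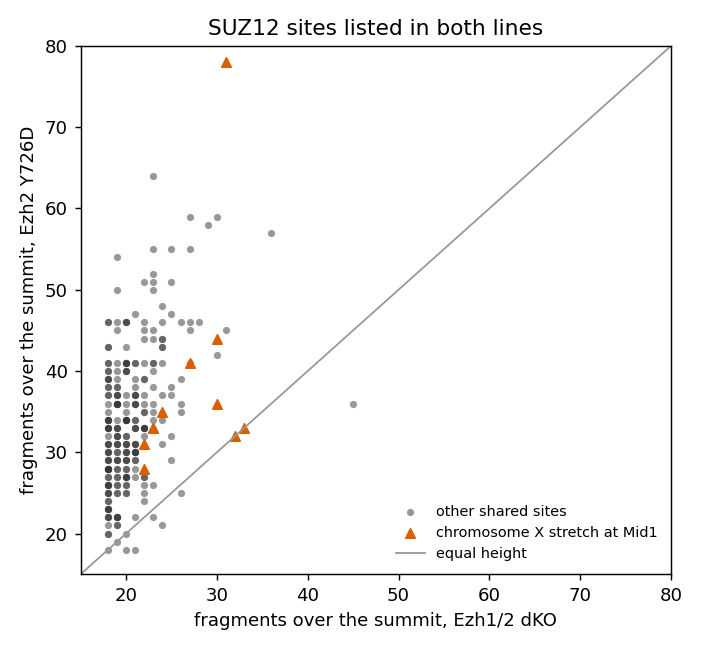
Fragments over the summit in *Ezh1/2* dKO (horizontal axis) and *Ezh2* Y726D (vertical axis) at the 264 sites listed in both lines, 1 point per site and 1 library per line, with the line of equal height. 253 points lie above the line, and the sites of the chromosome X stretch at *Mid1* (triangles) reach 78 fragments in *Ezh2* Y726D.

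A pair of regions gave peaks in every line. A 50 kb stretch of chromosome X (166400000 to 166450000) in and beside *Mid1*, a gene that spans the edge of the pseudoautosomal region, held all 14 of the *Ezh1/2* dKO peaks on chromosome X, 17 of the 30 in *Ezh2* Y726D and 10 of the 118 in WT. The median height there was 25 fragments in *Ezh1/2* dKO, 33 in *Ezh2* Y726D and 29.5 in WT. The highest peaks there differed more, with 33, 78 and 90 fragments in the same order. Outside it, chromosome X held no listed *Ezh1/2* dKO peak, 13 *Ezh2* Y726D peaks and 108 WT peaks. The other region, an array on chromosome 17 with a background above 50 fragments (39980040 to 39985776 in *Ezh2* Y726D), held 5 *Ezh1/2* dKO and 3 *Ezh2* Y726D peaks, with a fold enrichment of at most 2.02 and 2.30.

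Of the 14 *Ezh2* Y726D peaks in these regions that overlapped an *Ezh1/2* dKO peak, 12 also overlapped a peak of the HA control library, which comes from *Ezh1/2* dKO cells without a tagged protein, and all 14 overlapped an H3K27me3 peak of *Ezh2* Y726D. Of the 256 shared peaks elsewhere, 7 and 2 did. Without both regions, 3346 *Ezh2* Y726D and 298 *Ezh1/2* dKO peaks were left, and 95.6% of the latter overlapped the former.

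The remaining height was read against WT. Among the 302 *Ezh1/2* dKO peaks on a WT peak, outside backgrounds above 50 fragments, the height was a median of 23.7% of WT (quartiles 20.2 and 29.3). At the 261 *Ezh2* Y726D peaks that *Ezh1/2* dKO shared it was 39.7% (quartiles 33.8 and 49.4). 15 *Ezh1/2* dKO peaks reached 60% or more of WT, and 6 of them lay in the *Mid1* stretch. Most of the 15 lay on WT peaks of 30 fragments or fewer, such as 18 against 19 near *Speg*. On such a WT peak any listed peak reaches 60%, as listing needs 18 fragments, so these shares do not show kept height. The highest *Ezh1/2* dKO peak outside high background (chr17:36368219-36368634, intergenic, 24661 bases from a start site of *Rpp21*) was among the 15. It had 45 fragments against 62 in WT, 44 in *Ezh2* KO and 36 in *Ezh2* Y726D.

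The share of WT sites still listed rose with WT height. A higher WT peak can lose more of its height before it falls under the limit of 18 fragments, and this was not separated from other differences between sites. Of the 2463 WT peaks of 18 to 29 fragments, 21.1% (19.5 to 22.7) overlapped an *Ezh2* Y726D peak and 0.447% (0.250 to 0.798) an *Ezh1/2* dKO peak. Of the 961 WT peaks of 50 to 79 fragments, 81.2% (78.6 to 83.5) and 8.01% (6.46 to 9.90) did. Of the 378 of 80 to under 120 fragments, 96.3% (93.9 to 97.8) and 36.2% (31.6 to 41.2) did, and of the 23 of 120 or more, 100% (85.7 to 100) and 69.6% (49.1 to 84.4).

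*Ezh2* KO, which keeps *Ezh1*, stood between the lines at low WT sites and above *Ezh2* Y726D in height at high ones. At 30 to 49 WT fragments, 48.4% (46.0 to 50.9) of 1573 peaks were listed in *Ezh2* Y726D, 13.1% (11.5 to 14.9) in *Ezh2* KO and 1.40% (0.925 to 2.11) in *Ezh1/2* dKO. At 80 to under 120 WT fragments the median height was 31 fragments in *Ezh2* Y726D, 42 in *Ezh2* KO and 71 in *Ezh2* R685C, against 93 in WT. At 120 or more it was 45 in *Ezh2* Y726D and 21 in *Ezh1/2* dKO, or 34.4% and 16.8% of WT.

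**Figure D3:**
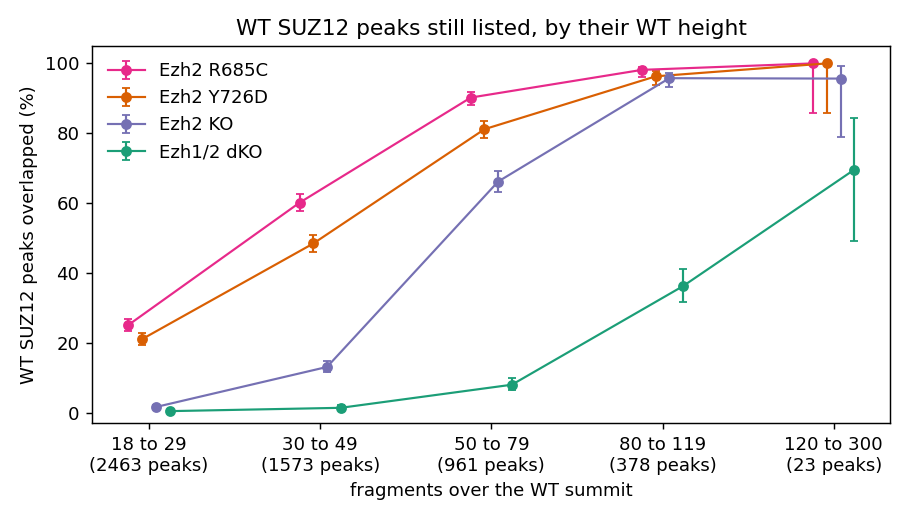
Share of WT SUZ12 peaks that a peak of each mutant line overlaps (percent, vertical axis, with Wilson 95% intervals), by the number of fragments over the WT summit (horizontal axis, with the number of WT peaks), from 1 library per line. The *Ezh1/2* dKO share stays at or below 8.01% up to 79 fragments and reaches 69.6% at 120 or more, and the *Ezh2* Y726D share rises from 21.1% to 100%.

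Sites listed in both lines held more CpGs than the other classes compared. The 300 bases around the summit held a median of 29 CpGs at the 270 *Ezh2* Y726D peaks shared with *Ezh1/2* dKO (quartiles 24 and 34.75), 24 at the 2620 *Ezh2* Y726D peaks with a WT peak only (quartiles 19 and 31) and 24 at the 476 with neither. The 2946 WT peaks listed in neither line held a median of 19 CpGs, and the same stretch at all 22225 protein-coding start sites 15. The ratio of observed to expected CpGs was 0.873, 0.779 and 0.758 at the *Ezh2* Y726D peaks in the same order, 0.683 at WT peaks listed in neither line and 0.599 at start sites. Height and CpG content moved together, since the *Ezh2* Y726D peaks of 18 to 20 fragments held a median of 23 CpGs and those of 41 or more 30, and their separate parts were not tested.

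The classes also differed in where their summits lay, a difference that was not tested. Of the 270 shared *Ezh2* Y726D peaks, 149 (55.2%, 49.2 to 61.0) had their summit within 1 kb of a protein-coding start site, against 1672 of the 2620 with a WT peak only (63.8%, 62.0 to 65.6). Exons further away held 22.2% of the shared summits and 12.3% of the others, as with *Uncx* above. Introns held 12.2% and 9.12%, and 10.4% and 14.8% were intergenic.

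Of 22225 protein-coding genes, 2277 had an *Ezh2* Y726D peak within 5 kb of a start site (10.2%) and 228 an *Ezh1/2* dKO peak (1.03%). 225 genes had both, 2052 *Ezh2* Y726D only, 3 *Ezh1/2* dKO only and 19945 neither. All 228 genes with an *Ezh1/2* dKO peak also had a WT peak, as did 1955 of the 2277 with an *Ezh2* Y726D peak.

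The 10 genes with the strongest *Ezh1/2* dKO peak were *Uncx*, *Mid1*, *Tbx1*, *Tnxb*, *Nkx1-1*, *Neurod2*, *Sim2*, *Foxd2*, *Gm17379* and *Nfatc1*. 6 of these encode developmental transcription factors of the homeobox, T-box, bHLH and forkhead families. *Uncx*, a homeobox gene of the somites, had 36 fragments in *Ezh1/2* dKO, 57 in *Ezh2* Y726D, 63 in *Ezh2* KO, 114 in *Ezh2* R685C and 139 in WT. *Tbx1*, a T-box factor of the pharyngeal arches, had 31, 45, 50, 90 and 90 in the same order. *Neurod2*, a neuronal bHLH factor, had 30, 59, 60, 126 and 134. In each of these the order of the lines was the same at the bottom, with *Ezh1/2* dKO below *Ezh2* Y726D.

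*Nkx1-1*, an NK-class homeobox gene, had 29 fragments in *Ezh1/2* dKO, 58 in *Ezh2* Y726D and 131 in WT. *Sim2*, a bHLH-PAS factor, had 28, 46 and 125, and *Foxd2*, a forkhead factor, 27, 41 and 101. *Nfatc1*, a calcium-regulated transcription factor, had 27, 55 and 103, and *Tnxb*, which encodes tenascin X, 30, 42 and 107. *Mid1* and *Gm17379*, both in the chromosome X stretch, had 32 and 27 against 41 in *Ezh2* Y726D and 30 in WT, and so did not share the loss of height.

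The 10 genes with the strongest *Ezh2* Y726D peak and no *Ezh1/2* dKO peak within 5 kb of a start site were *Thbs1*, *Mgp*, *Tbx2*, *Gm1979*, *Keap1*, *Bsx*, *Cd83*, *Arid3a*, *C030046I01Rik* and *Kiss1r*. *Tbx2*, a T-box repressor of limb and heart, had 55 fragments in *Ezh2* Y726D, 48 in *Ezh2* KO, 107 in *Ezh2* R685C and 101 in WT. *Bsx*, a homeobox gene of the hypothalamus, had 45, 42, 97 and 102. *Keap1*, the sensor of oxidative stress that restrains NRF2, had 51 in *Ezh2* Y726D and 67 in WT, with no listed peak in *Ezh2* KO. An *Ezh1/2* dKO peak of 23 fragments overlapped this *Ezh2* Y726D peak, but beyond 5 kb from the start site, so the site itself was listed in both lines. *Cd83*, a surface protein of immune cells, had 45 and 56, with 18 in *Ezh2* KO. *Arid3a*, *C030046I01Rik* and *Kiss1r* share 1 peak of 43 fragments in *Ezh2* Y726D and 46 in WT. The *Gm1979* peak had 68 fragments in *Ezh2* Y726D, 72 in *Ezh2* R685C and 70 in WT.

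Gene lists were counted within 5 kb of a start site against the shares of all protein-coding genes above. The Hox clusters, which pattern the body axis, had *Ezh2* Y726D peaks at 8 of 11 *Hoxa*, 7 of 10 *Hoxb*, 5 of 9 *Hoxc* and 8 of 9 *Hoxd* genes, and *Ezh1/2* dKO peaks at 2, 3, 0 and 0. The *Hoxa9* and *Hoxa10* peak had 20 fragments in *Ezh1/2* dKO, 25 in *Ezh2* Y726D, 65 in *Ezh2* KO and 113 in WT. *Hoxb3* had 21, 47, 45 and 102. *Hoxc9* had 19 in *Ezh2* Y726D and 123 in WT, with no listed peak in *Ezh2* KO or *Ezh1/2* dKO.

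From the first to the last gene of the *Hoxa* cluster (chr6:52105366-52210874), peaks covered 54.0% of the bases in WT, 24.5% in *Ezh2* KO, 8.67% in *Ezh2* Y726D and 0.549% in *Ezh1/2* dKO. The *Hoxb* cluster had 27.8%, 7.90%, 4.74% and 0.347% in that order, and the *Hoxd* cluster 46.8%, 19.6%, 10.3% and 0%. In the *Hoxc* cluster, *Ezh2* Y726D peaks covered 1.52% against 41.7% in WT and 27.7% in *Ezh2* R685C, with no peak in *Ezh2* KO or *Ezh1/2* dKO. Across the *Hoxa* cluster *Ezh2* Y726D therefore lay below *Ezh2* KO, and across the *Hoxc* cluster above it.

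Most other homeobox genes had an *Ezh2* Y726D peak. *Ezh2* Y726D peaks lay at 28 of 29 paired and LIM factors and 31 of 33 NK, Dlx and other ANTP-class factors, and *Ezh1/2* dKO peaks at 10 and 14. *Alx4*, a paired-type factor of limb and skull, had 23 fragments in *Ezh1/2* dKO, 52 in *Ezh2* Y726D and 133 in WT. *Pax5*, the B-lineage regulator, had 23, 45 and 98. *Lbx1* and *Vax1*, factors of muscle precursors and of the ventral forebrain, had 24 each in *Ezh1/2* dKO, 44 and 41 in *Ezh2* Y726D and 108 and 99 in WT.

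Forkhead factors had *Ezh2* Y726D peaks at 16 of 17 genes and *Ezh1/2* dKO peaks at 8. *Foxf1*, a factor of the lateral mesoderm, had 26 fragments in *Ezh1/2* dKO, 40 in *Ezh2* Y726D and 105 in WT. *Foxd1*, a factor of the kidney stroma, had 24 in *Ezh1/2* dKO and 21 in *Ezh2* Y726D against 85 in WT, a difference between both mutants within counting error. T-box genes had 10 and 1 of 11, GATA genes 5 and 2 of 6, Sox genes 11 and 2 of 13, tissue-specific bHLH genes 19 and 7 of 25, and 6 and 1 of 9 in the Zic and sine oculis homeobox list. *Gata6*, the endoderm regulator, had 26, 35 and 102 fragments in *Ezh1/2* dKO, *Ezh2* Y726D and WT, and *Gata5*, its relative of heart and gut, 19, 54 and 93. *Olig1*, a factor of the oligodendrocyte lineage, had 25, 47 and 105, and *Six3*, a factor of the anterior brain and eye, 20, 46 and 123.

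Signalling genes had more peaks in *Ezh2* Y726D than in *Ezh1/2* dKO. Wnt ligands had peaks at 15 and 1 of 19 genes, against 18 in WT, the 1 being *Wnt7b* with 23 fragments in *Ezh1/2* dKO, 36 in *Ezh2* Y726D and 102 in WT. FGF ligands and receptors had 12 and 4 of 18, against 16 in WT, among them *Fgfr3* with 23, 64 and 116 fragments and *Fgf9* with 20, 36 and 103. BMP and GDF ligands and their antagonists had 12 and 2 of 16, with 18, 34 and 91 at *Bmp2*. WT also had 12 of these 16, but 1 gene with an *Ezh2* Y726D peak, *Lefty2*, had none in WT. Of the 7 cyclin-dependent kinase inhibitor genes, 3 had an *Ezh2* Y726D peak and 1 an *Ezh1/2* dKO peak, that of *Cdkn1c*, with 19, 31 and 88 fragments.

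No gene of PRC2 subunits, PRC1 subunits, pluripotency factors or ribosomal proteins had an *Ezh1/2* dKO peak, and 2 of 14, 5 of 19, 2 of 18 and 1 of 30 had an *Ezh2* Y726D peak. These are 14.3%, 26.3%, 11.1% and 3.33%, against 10.2% over all protein-coding genes, and the absence of *Ezh1/2* dKO peaks is to be read against 1.03%. *Phf19*, an accessory PRC2 subunit, had 27 fragments in *Ezh2* Y726D and 51 in WT. *Esrrb*, a pluripotency factor, had 25 and 79. Of the 15 Polycomb loci that the study displayed, 14 had an *Ezh2* Y726D peak and 7 an *Ezh1/2* dKO peak, a list the study chose on these samples.

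Where both were listed, the height of *Ezh2* Y726D as a share of WT was a median of 23.9% at 8 *Hoxa* genes (range 21.9 to 31.8), 35.6% at 28 paired and LIM factors, 37.2% at 16 forkhead factors and 46.3% at 12 FGF genes. Over all 1955 protein-coding genes with both the median was 51.1%. A WT peak of few fragments cannot fall far and stay listed, so these shares cannot be compared between lists of unequal WT height.

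**Figure D4:**
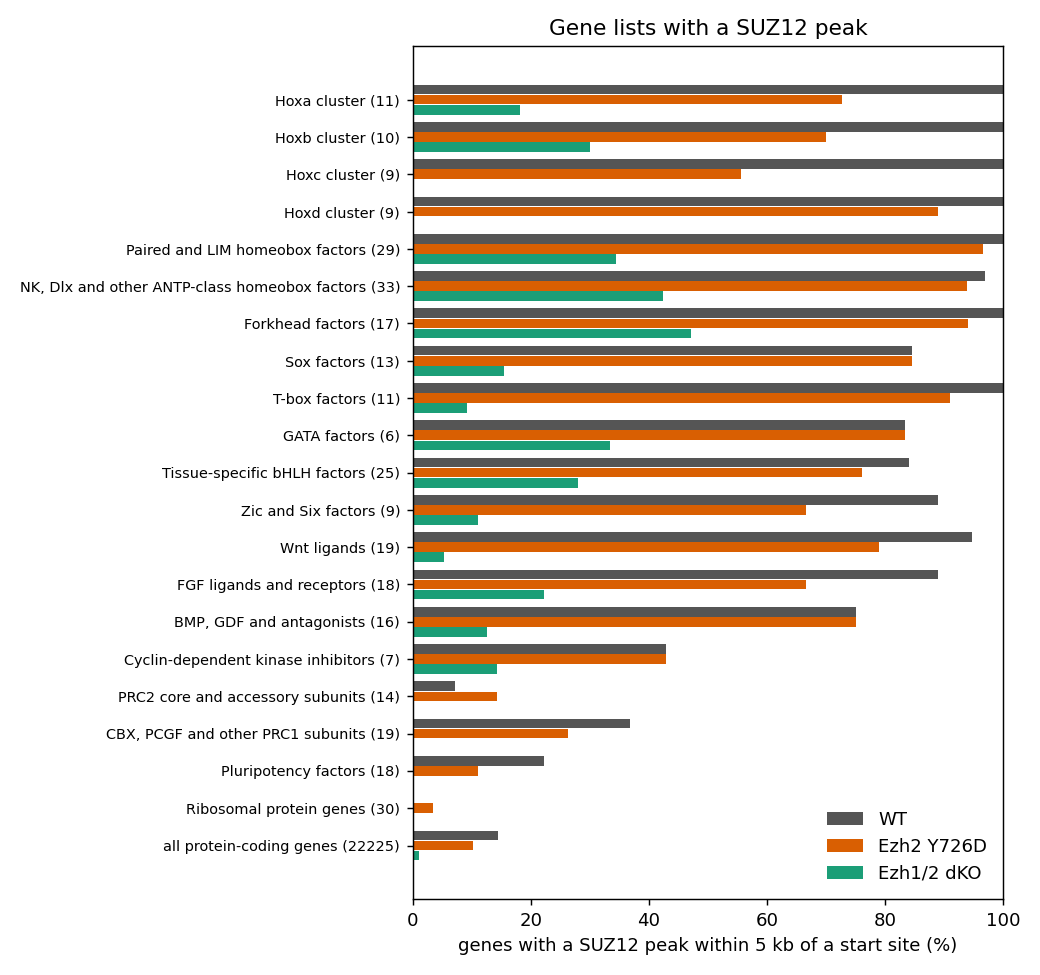
Share of the genes of each list (percent, with the number of genes in the annotation) that have a SUZ12 peak within 5 kb of a start site in WT, *Ezh2* Y726D and *Ezh1/2* dKO, 1 library per line. The *Ezh2* Y726D bars stay near the WT bars in most transcription factor lists, and the *Ezh1/2* dKO bars reach at most 47.1%, at forkhead factors.

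The 14 *Ezh1/2* dKO peaks without an *Ezh2* Y726D peak were weak. 13 of them had 18 to 21 fragments, and 1 near *Vmn1r2* had 45 over a background of 14.5. 11 lay on WT peaks. The strongest were near *Runx3*, *Sox11*, *Fam84a*, *Gm996* and *Lphn2*, with 21, 20, 19, 19 and 19 fragments. *Runx3* and *Sox11* encode transcription factors of lymphoid and neural cells, and both peaks lay within 1 kb of a start site. 3 of the 14 lay on chromosome 12, where 29.7% of the WT peaks overlapped an *Ezh2* Y726D peak, against 45.4% over all chromosomes. That share was lower still on chromosome X (15.3%), and chromosomes 4 and 11 had 36.9% and 38.0%. At *Sox11* a separate *Ezh2* Y726D peak of 18 fragments lay within 5 kb.

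The 476 *Ezh2* Y726D peaks with neither a WT nor an *Ezh1/2* dKO peak had a median of 20 fragments, and 314 (66.0%, 61.6 to 70.1) had their summit within 1 kb of a start site. Counted with the 7 that *Ezh1/2* dKO shared, 462 had under 30 fragments and 21 had 30 or more. These 21 were narrow, with a median of 378 bases (quartiles 307 and 612) against 1154.5 (quartiles 859 and 1554.25) for the 544 of the same height with a WT peak. They held a median of 9 CpGs against 29. Counting exons at any distance from a start site, 16 of the 21 summits lay in exons, against 308 of the 544. An *Ezh2* R685C peak overlapped 1 of the 21 against 522 of the 544, and an *Ezh1/2* dKO peak 4 against 181.

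The 5 strongest of them lay in *Thbs1*, *Mgp*, *Tpm1*, *Igfbp2* and *Lox*, which encode a secreted matrix glycoprotein, matrix Gla protein, a tropomyosin, a binding protein of insulin-like growth factors and an enzyme that crosslinks collagen. They had 60, 56, 55, 36 and 35 fragments. *Thbs1* (chr2:117937612-117952869) held 12 *Ezh2* Y726D peaks of 200 to 683 bases, 10 of them with the summit in an exon, and no peak in the other 4 lines. A WT peak of 21 fragments lay within 5 kb of its start site but outside the gene. *Igfbp2* held 3, all with the summit in an exon, and none in the other lines. *Tpm1* and *Lox* held 3 each and also peaks of other lines elsewhere in the gene, with up to 75 and 67 fragments in WT, 22 and 28 in *Ezh2* KO and 40 and 39 in *Ezh2* R685C. *Thbs1* had 9.81 and 16.78 normalized RNA counts in *Ezh2* Y726D and 28.03 and 23.09 in *Ezh1/2* dKO, *Mgp* 0.89 and 1.12 against 0 in both, and *Igfbp2* 340.59 and 368.06 against 412.14 and 332.08. What sets these peaks apart was not tested.

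Other peak lists of the series separated the 3 classes of *Ezh2* Y726D peaks. *Ezh2* R685C, the other line with a mutated EZH2, had SUZ12 peaks at 94.1% (90.6 to 96.3) of the 270 shared peaks, 71.9% of the 2620 with a WT peak only and 5.88% of the 476 with neither. HA-tagged EZH1, expressed in *Ezh1/2* dKO cells, had peaks at 95.9%, 75.5% and 5.88%, and the HA control at 7.04%, 1.34% and 2.94%. WT H3K27me3 had 93.7%, 85.9% and 17.4%. In *Ezh2* Y726D itself H3K27me3 peaks lay at 5.93%, 0.191% and 0.840% of them, and at 2 of the 256 shared peaks outside both regions named above.

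H3K27ac, a mark of active promoters and enhancers that cannot sit on the same lysine as methylation, ran the other way. In *Ezh2* Y726D it covered 18.1% (14.01 to 23.2) of the shared peaks, 26.98% (25.3 to 28.7) of those with a WT peak only and 46.8% (42.4 to 51.3) of those with neither. In *Ezh1/2* dKO it covered 4.81% (2.84 to 8.06), 8.40% (7.39 to 9.52) and 24.8% (21.1 to 28.9) of the same sites. The H3K27ac lists hold 40829 peaks in *Ezh2* Y726D and 17618 in *Ezh1/2* dKO, and so the levels cannot be compared between lines, only the order of the classes within each.

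**Figure D5:**
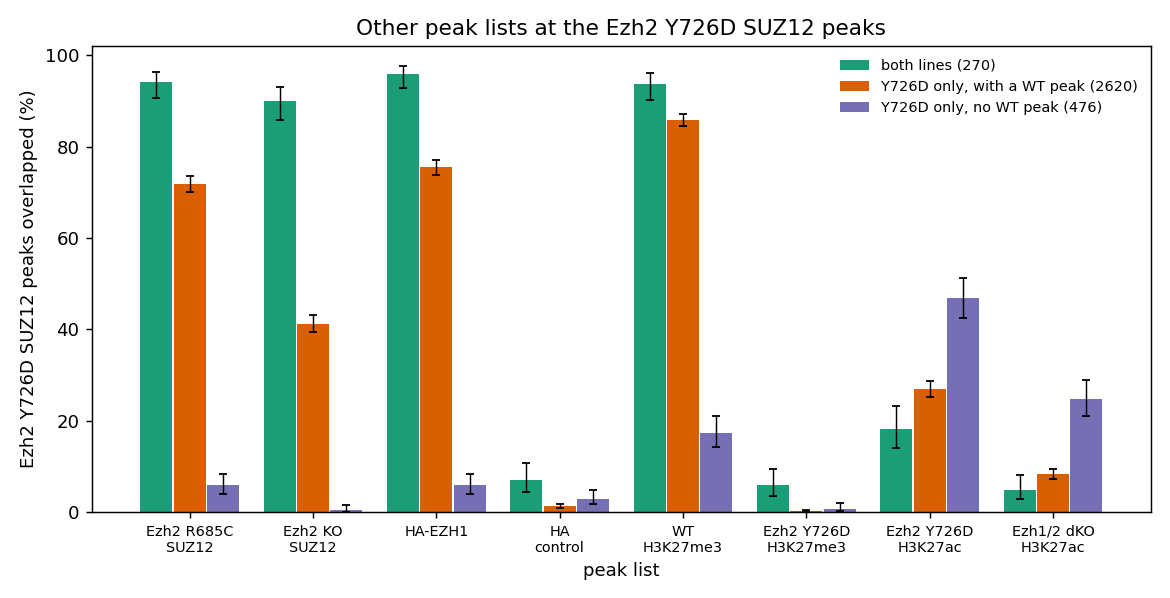
Share of the *Ezh2* Y726D SUZ12 peaks (percent, with Wilson 95% intervals) that a peak of each other list overlaps, for the 270 peaks shared with *Ezh1/2* dKO, the 2620 with a WT peak only and the 476 with neither, 1 library per list. SUZ12 of *Ezh2* R685C, HA-EZH1 and WT H3K27me3 fall from the first class to the last, and H3K27ac rises in both lines.

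RNA-seq asked whether genes with a SUZ12 peak only in the line with the inactive EZH2 differed in expression between the lines. Of the 2052 such genes, 1730 also had a WT peak. The share called higher was near that over all genes. Of 13872 genes tested (limma on log2 of the normalized count plus 1, Benjamini-Hochberg adjusted p under 0.1 and a log2 change of at least 1), 26 were higher in *Ezh2* Y726D than in *Ezh1/2* dKO (0.187%) and 207 were lower (1.49%). After quantile normalization these numbers were 50 and 168. Among the 1231 of 2052 genes with an *Ezh2* Y726D peak only that passed the filter, 3 were higher (0.244%, 0.0829 to 0.714) and 21 lower (1.71%, 1.12 to 2.59). Among the 77 of 225 genes with peaks in both lines that passed it, 0 were called, with limma and with edgeR, and 2 were higher with DESeq2.

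Among the tested genes, the median log2 difference was −0.20 over those with an *Ezh2* Y726D peak only (quartiles −0.70 and 0.16). It was −0.15 over those with both and −0.16 over the 861 with a WT peak only. Over all 13139 tested genes found in the annotation it was −0.01. The differences between these medians were not tested.

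Levels were low in each bound class, also among the genes that passed the filter on low values. Over these genes alone, the median normalized count was 37.8 in *Ezh2* Y726D and 48.7 in *Ezh1/2* dKO for those with an *Ezh2* Y726D peak only (1231 of 2052). It was 15.4 and 19.9 for those with both (77 of 225), and 206 and 211 for those with neither.

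The 3 genes with an *Ezh2* Y726D peak only that were higher in *Ezh2* Y726D were *Ankrd33b*, *Fam207a* and *Bmp4*. *Bmp4*, a ligand of the BMP pathway, had 736.45 and 688.02 normalized counts in *Ezh2* Y726D, 342.9 and 333.86 in *Ezh1/2* dKO and 313.49 and 372.61 in WT, without overlap between the lines. Its log2 change was 1.07 ± 0.15 (SE, limma adjusted p = 0.0163). *Ankrd33b*, an ankyrin repeat gene, had 349.5 and 334.5 against 100.56 and 122.53, a log2 change of 1.61 ± 0.25 (limma adjusted p = 0.0220). *Fam207a*, which had no WT peak, had 382.49 and 410.57 against 190.41 and 182.91. Their *Ezh2* Y726D peaks held 20, 20 and 18 fragments in the order *Ankrd33b*, *Bmp4* and *Fam207a*.

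The 5 that were lowest against *Ezh1/2* dKO were *Stk33*, *Prkch*, *Moxd1*, *Col26a1* and *Defb25*. *Stk33*, a serine/threonine kinase gene, had no read in either *Ezh2* Y726D library and 41.21 and 37.29 normalized counts in *Ezh1/2* dKO, at least 13-fold lower against a floor of 3 reads per library. *Moxd1*, a monooxygenase gene, had 10.7 and 3.36 against 128.59 and 126.08, and 18.68 and 20.22 in WT, a log2 change of −4.17 ± 0.50 (SE, limma adjusted p = 0.00905). *Col26a1*, a collagen gene, had 22.29 and 5.59 against 159.08 and 129.64, and 166.75 and 133.83 in WT. *Prkch*, a protein kinase C gene, had 0 and 3.36 against 44.51 and 90.57, and *Defb25*, a defensin gene, 0.89 and 0 against 13.19 and 16.87. WT had 17.34 and 3.85 at *Stk33*, 5.34 and 4.81 at *Prkch* and 8 and 7.7 at *Defb25*. All 5 genes lay below both WT libraries in *Ezh2* Y726D, some with values near the floor. In *Ezh1/2* dKO all but *Col26a1* lay above both WT libraries.

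Among the gene lists, few members were called. Of the genes tested, *Sox21* and *Msc*, a Sox and a bHLH factor, were lower in *Ezh2* Y726D, and *Bmp4* and *Ezh2* itself were higher, as the deletion of *Ezh2* requires. *Sox21* had 52.6 and 26.85 normalized counts in *Ezh2* Y726D, 147.54 and 122.53 in *Ezh1/2* dKO and 36.02 and 45.25 in WT. *Msc* had 74 and 108.52, 232.44 and 205.11, and 105.39 and 96.28 in the same order. *Dppa3*, a pluripotency-associated gene without a SUZ12 peak in either line, had 21.4 and 20.14 in *Ezh2* Y726D and 282.72 and 413.77 in *Ezh1/2* dKO (log2 change −3.98 ± 0.33, limma adjusted p = 0.00150). WT lay between them, with 176.09 and 105.91. No Hox gene was called. *Hoxa9*, with a peak in both lines, had 145.33 and 210.32 normalized counts in *Ezh2* Y726D, 61 and 50.61 in *Ezh1/2* dKO and 0 and 2.89 in WT, and *Hoxa10* had 423.5 and 493.36, 225.85 and 222.87, and 2.67 and 0. Both mutants were above both WT libraries at these genes, and *Ezh2* Y726D did not overlap *Ezh1/2* dKO, with limma adjusted p = 0.362 and 0.671.

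These calls rest on 2 libraries per line. Without *Ezh1/2* dKO replicate 1 or 2 the total fell to 20 or 14, without *Ezh2* Y726D replicate 1 it rose to 514 and without replicate 2 it was 135, where the lone library is assumed to vary like the others.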

How the data were processed

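For SUZ12 ChIP-seq the authors used Bowtie (mm9, unique matches), discarded PCR duplicates by means of Picard, and ran MACS2 on each library. The deposited lists give for each peak a fold enrichment (a ratio of fragments to local background, each plus 1) and a −log10 p. All peaks on chromosomes 1 to 19, X and Y were used, at the listed −log10 p of 10 or more. SUZ12 libraries had no Drosophila spike-in. The deposited RNA-seq table holds a normalized signal, which the authors made from HTSeq counts with DESeq2 size factors. Whole reads could be recovered for 100% of its values (3604123 to 5181553 per library). HA lists hold positions and another value that was not used.

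Overlaps needed 1 base. Fragments and background were solved from the fold and the −log10 p of each peak, a measure chosen after the data were seen. Genes and sequences come from GENCODE vM1 and NCBIM37 (mm9). Shares have Wilson 95% intervals for counting error only. RNA-seq was fitted with limma 3.58.1 in R 4.3.3, with a trend, over all 8 libraries and those genes whose normalized counts averaged 5 or more, with edgeR 4.0.16 and DESeq2 1.42.0 on recovered reads as alternatives. Of 13872 genes tested, 13139 matched an annotated gene. The study's reporting summary speaks of biological replicates in its ChIP-seq section, without saying whether RNA-seq replicates were separate cultures. The p-values therefore measure the spread between these samples. Peaks were handled with Python 3.11.15, pandas 2.3.3, SciPy 1.17.1 and bedtools 2.31.1, and the scripts were tested on simulated data.

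The members, gene lists and tests were chosen with earlier results of these data known. Named genes are up to 4 per list by the strongest *Ezh1/2* dKO and then *Ezh2* Y726D peak within 5 kb of a start site, the 10 strongest of each class, the genes of the 5 strongest peaks of 1 line alone, and up to 5 called genes with the largest change in each direction and class. *Sox21*, *Msc*, *Dppa3*, *Rpp21*, *Lefty2* and *Vmn1r2* were named after their values were seen. *Foxl1* and *Sox1* had no match in the annotation. ATAC-seq lists were not compared, as 92 of 752009 *Ezh2* Y726D and 91 of 798238 *Ezh1/2* dKO regions reached a −log10 p of 10. RING1B, H2AK119ub, H3K27me1 and H3K27me2, the EZH2 rescue and DMSO or MG132 samples, and the deposited comparisons with WT, which hold the authors' log2 fold changes and p-values, were not used. 1 gene of the lists is not reported here by name.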

Additional observations from a re-analysis of the deposited data

How the results depend on the processing

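The one order between the lines that turned was that of peak width. At a p of at most 1e-20 the lists held 670 and 9 peaks, a ratio of 74.4, 88.9% of the 9 *Ezh1/2* dKO peaks overlapped *Ezh2* Y726D and 1.19% of the *Ezh2* Y726D peaks the reverse, median widths were 1088 bases in *Ezh2* Y726D and 1130 in *Ezh1/2* dKO, where 9 peaks are left, and 7 genes had both, 532 *Ezh2* Y726D only and 0 *Ezh1/2* dKO only. With the strongest 317 *Ezh2* Y726D peaks the share was 49.5% and their width 1216. Merging peaks within 1 kb gave 9.09% and widths of 697 and 439, and peaks of 18 to 20 fragments had widths of 367 and 334. The median ratio of strength at shared sites was 2.01 by −log10 p, 1.56 by fold enrichment and 1.61 by fragments, since these are different scales. In RNA-seq, genes higher in *Ezh2* Y726D were 16 without a filter, 17 at a mean of at least 20, 17 with only the 4 libraries (133 lower), 50 after quantile normalization and 54 with DESeq2. Leaving out 1 library gave 1 to 61 higher and 13 to 453 lower. Why the counts moved was not tested.

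Deviations of libraries with the same replicate number correlated at −0.41 to −0.07 between WT and a mutant line. Between mutant lines they correlated at 0.22 to 0.29. Whether the numbers mark pairs is not stated. With the replicate number as a block, 20 genes were higher and 142 lower. Of 67 alternatives other than leaving out a library, 42 stayed near the main value, among them windows of 1 and 10 kb, an overlap of 50% and a 500-base window for CpGs. Sites under 18 fragments are not listed, so absence from a list is not absence of SUZ12. With 1 library per line, line and library cannot be told apart.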
